A study of Rattus norvegicus with 48 samples.

Results

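The miR-7 and miR-190 families were followed in livers of rats treated with thioacetamide (TAA), a hepatotoxicant that is activated by hepatic metabolism. The members were found by name: every mature miRNA whose name begins with miR-7a, miR-7b, miR-190a or miR-190b, with 1 precursor row kept for each, the one with the most reads or, in a tie, the one first by name. This gave 8 mature miRNAs (4 of the miR-7 family and 4 of the miR-190 family) among 764 in the count file, of which 664 had a read. Of the 301 miRNAs that passed the filter on low counts (5 RPM or more, that is counts scaled to the library total, in 3 or more libraries), 5 were members: miR-7a-5p, miR-7a-1-3p, miR-190a-5p, miR-190a-3p and miR-190b-5p. The leading members, rno-miR-7a-5p, rno-miR-190a-5p and rno-miR-190b-5p (rno, rat, is left out from here on), were selected on their treated against control values in these data, so those values are a description and no p-value is given for them.

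Small RNA was sequenced from livers of 48 male Sprague-Dawley rats, 3 in each of 16 groups. TAA was given once daily at 4.5 mg/kg (low dose), 15 mg/kg (middle dose) or 45 mg/kg (high dose) for 3, 7, 14 or 28 days (3-d to 28-d), and each time point had its own controls on vehicle alone (0 mg/kg). Each library came from the liver of a different rat, the ages were not given in the sources used here, and the 3 doses at a time point share the same 3 controls. Rats carry the running numbers 1 to 48 of the labels as replicate numbers.

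A miRNA is cut from a hairpin precursor whose arms give the 5p and the 3p strand. As a rule 1 strand is kept in the Argonaute protein, where bases 2 to 8, the seed, pair with target mRNAs and lower their translation or stability. miR-7 is an ancient miRNA, best known from brain and endocrine pancreas, that represses components of epidermal growth factor receptor signalling and is bound at many sites by the circular RNA Cdr1as. miR-190a lies in an intron of Tln2, which codes for a talin, a linker between integrins and the actin cytoskeleton.

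The mature sequences of the 5p strands are shown because they fall into 2 seed groups and because within each group the strands are almost alike. They are written 5′ to 3′ from RefSeq (assembly GRCr8), with the seed in capitals.
miR-7a-5p: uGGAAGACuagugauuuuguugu
miR-7b: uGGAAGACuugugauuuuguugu
miR-190a-5p: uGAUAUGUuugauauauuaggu
miR-190b-5p: uGAUAUGUuugauauuagguu

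miR-7a-5p and miR-7b share the seed and differ at 1 of 23 bases, A10U counted from the 5′ end of miR-7a-5p. miR-190a-5p (22 bases) and miR-190b-5p (21 bases) share the seed and their 15 leading bases and differ at the 3′ end. miR-7a-5p comes from 2 loci, chr17:6278710-6278732 on the plus strand inside Hnrnpk, the gene of an RNA-binding protein, and chr1:142215818-142215840 on the plus strand inside a long noncoding RNA. miR-7b lies at chr9:1167464-1167486 on the plus strand, inside an annotated pseudogene. miR-190a-5p lies at chr8:76732228-76732249 on the minus strand inside Tln2, and miR-190b-5p at chr2:177812471-177812491 on the plus strand, outside any other gene in the table used.

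The 3p strand of the Hnrnpk hairpin is shown because it serves below as a partner of miR-7a-5p from the same hairpin.
miR-7a-1-3p: aCAACAAAucacagucugccau
It lies at chr17:6278751-6278772 on the plus strand and its seed is shared by miR-3065-5p, which had between 0 and 25 reads per library and was not tested.

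In control livers the members were of middle abundance. By mean RPM over the 12 controls miR-190a-5p ranked 157 of the 664 detected miRNAs, miR-7a-5p 185, miR-7a-1-3p 206, miR-190b-5p 224 and miR-190a-3p 294. The other 3 members were close to the limit of detection. miR-7b had 64 reads over all 48 libraries with at most 6 in any of them, miR-190b-3p had 14 and miR-7a-2-3p had 3. The low count of miR-7a-2-3p, from the hairpin on chromosome 1, stands beside 10775 reads of miR-7a-1-3p from the hairpin on chromosome 17. The reads of miR-7a-5p itself do not tell its loci apart: 28624 were counted for one precursor and 26857 for the other, and the former row was kept. For miR-190a-5p the count file lists 2 precursors with the same count, 34580 reads each, so that either row gives the same values, and the RefSeq table used holds 1 locus.

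The libraries held from 293331 to 14906217 counts (median 10237542), and the hepatocyte miRNA miR-122-5p, which marks liver, took between 2.23% and 6.21% of the reads. Control 3-d replicate 1 was the library with 293331 counts. The next lowest total was 4829217. In that control the limit of detection, set at 3 reads, equals 10.2 RPM, and it held 10 reads of miR-7a-5p, 7 of miR-190a-5p and 1 of miR-190b-5p. Its summed level of 4 red blood cell miRNAs was 81096 normalized RPM, against at most 9240 in any treated library. Nearly all of this sum was miR-486 (80944). The other 3 were at their lowest of the 12 controls there, miR-451-5p at 107, miR-144-3p at 11.3 and miR-144-5p at 33.8 normalized RPM. The sum is therefore not read as red blood cell content. A further library, low dose 28-d replicate 29, stood apart for the members, as described below. Fold changes at 3-d and for the low dose at 28-d are therefore also given without the library concerned. Levels are in RPM after upper quartile normalization (normalized RPM) and are not scaled by length, the mature strands being of 20 to 23 bases. In whole liver, fewer cells of a type and less RNA per cell cannot be told apart.

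miR-7a-5p had a higher mean in the treated than in the control livers in all 12 conditions, and up to 14-d its mean was highest at the low dose. The 12 controls lay between 20.7 and 35.5 normalized RPM, the same range as without control 3-d replicate 1, with a median of 28.6, and the 36 treated libraries between 31.2 and 137 with a median of 62.6. The 3 low dose rats had 94.3, 105 and 90.1 normalized RPM at 3-d. They had 129, 105 and 116 at 7-d, and 104, 93.8 and 137 followed at 14-d. All 9 of these libraries lay above every control. Separation of all 3 low dose rats upwards from their time-matched controls was common. It was seen for 28.6% of the 301 miRNAs after 3 days, 30.2% after 7 days and 32.9% after 14 days. At 28-d the low dose rats had 32.2, 107 and 31.2 normalized RPM, so that replicate 29 alone was at the level of the earlier time points.

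The middle dose rats had 42.6, 52.9 and 42 normalized RPM of miR-7a-5p at 3-d and 47.6, 52 and 40.8 at 7-d. They reached 107, 65.3 and 43.6 at 14-d and 72.7, 57.2 and 59.9 at 28-d. In the high dose the rats had 71.5, 77.1 and 33.3 at 3-d and 68.7, 84.3 and 121 at 7-d, but 35.3, 37.1 and 37.1 at 14-d and 37.1, 43.6 and 42.5 at 28-d. The middle dose values were thus higher from 14-d on, and the high dose values were nearest to the controls at 14-d and 28-d. In the order of the 16 group means, neighbouring groups overlapped or, for high dose 28-d and high dose 14-d, met at 37.1 normalized RPM, and the 4 control groups were the lowest.

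Against the time-matched controls, the log2 fold change of miR-7a-5p at the low dose was 1.60 ± 0.24 (SE, 3 rats against 3) after 3 days, 1.83 ± 0.14 after 7, 2.02 ± 0.20 after 14 and 1.14 ± 0.49 after 28 days. Without replicate 29 the value at 28-d was 0.30 ± 0.22, which is under the 1.5-fold threshold. Without control 3-d replicate 1 the value at 3-d was 1.54 ± 0.14. At the middle dose the log2 fold changes were 0.53, 0.52, 1.38 and 1.30 from 3-d to 28-d, and at the high dose 0.93, 1.48, 0.40 and 0.68. Without control 3-d replicate 1 the values at 3-d were 0.47 at the middle and 0.87 at the high dose.

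A differentially expressed miRNA (DEM) had to change by more than 1.5-fold and to pass edgeR's quasi-likelihood test at 0.05 without adjustment. miR-7a-5p passed these thresholds in 8 of the 12 conditions, where 12.1% of all tests over the 301 miRNAs gave a higher DEM, and its 3 treated values were above all 3 controls in 10 conditions, where 21.2% of all tests showed this. Of the 301 miRNAs, 7 were higher DEMs in at least 8 conditions. Since these contrasts were known when the members were chosen, nothing is read from the counts.

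**Figure D1:**
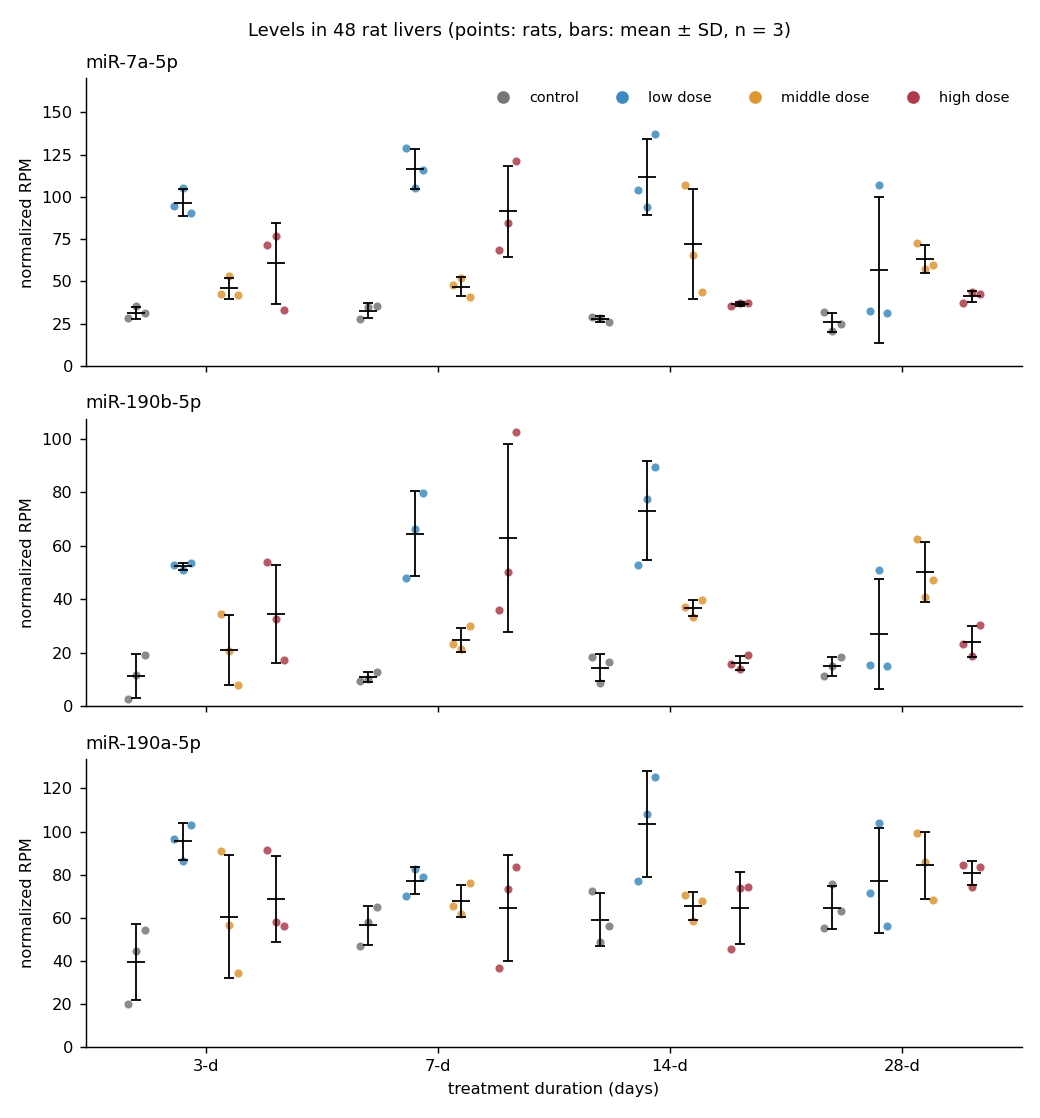
Level in normalized RPM (vertical axes, starting at 0) of miR-7a-5p, miR-190b-5p and miR-190a-5p in each of the 48 livers by treatment duration, with 1 point per rat coloured by dose and bars for the mean ± SD of 3 rats. The low dose rats up to 14-d lie between 90.1 and 137 for miR-7a-5p, above the controls (20.7 to 35.5), whereas the dose groups of miR-190a-5p largely overlap with the controls.

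miR-190b-5p showed a similar order of groups at a lower level. The controls lay between 2.82 and 19.2 normalized RPM (from 8.6 without control 3-d replicate 1) with a median of 12.3, and the treated libraries between 7.96 and 102 with a median of 36.5. At the low dose the 3 rats had 52.9, 50.9 and 53.4 normalized RPM at 3-d. They had 47.8, 66.1 and 79.6 at 7-d, and 52.8, 77.4 and 89.3 followed at 14-d. All of these lay above every control. Against time-matched controls, such a separation of the low dose rats was common, with shares of 28.6%, 30.2% and 32.9% of the 301 miRNAs. At 28-d miR-190b-5p had 15.3, 50.9 and 15.1 normalized RPM, again with replicate 29 apart from the other rats.

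At the middle dose miR-190b-5p had 34.4, 20.8 and 7.96 normalized RPM at 3-d and 23.4, 21.4 and 29.9 at 7-d. It had 36.9, 33.5 and 39.6 at 14-d and 62.5, 40.9 and 47.4 at 28-d. At the high dose it had 53.8, 32.5 and 17.2 at 3-d and 36, 50.2 and 102 at 7-d, then 15.8, 14 and 19.2 at 14-d and 23.2, 18.7 and 30.2 at 28-d. The high dose values at 14-d lay within the range of the 12 controls. The 3-d groups of the middle and high dose overlapped with their controls.

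The log2 fold change of miR-190b-5p at the low dose was 2.0 ± 0.46 at 3-d (1.76 ± 0.23 without control 3-d replicate 1), 2.57 ± 0.22 at 7-d and 2.34 ± 0.29 at 14-d. At 28-d it was 0.85 ± 0.49, and 0.03 ± 0.24 without replicate 29. At the middle dose the values were 0.71, 1.19, 1.35 and 1.76 from 3-d to 28-d. At the high dose they were 1.43, 2.53, 0.19 and 0.69. The value of 2.53 ± 0.40 at 7-d included replicate 27 with 102 normalized RPM, without which it was 1.99 ± 0.24. miR-190b-5p passed the DEM thresholds in 9 of 12 conditions (12.1% of all tests). Without control 3-d replicate 1 the high dose at 3-d no longer passed, with a log2 fold change of 1.15 ± 0.51, and the middle dose at 3-d had 0.45 ± 0.57.

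miR-190a-5p, which has the same seed, was the more abundant member in the controls, with 19.7 to 75.4 normalized RPM (from 44.6 without control 3-d replicate 1) and a median of 55.7. The treated libraries lay between 34.2 and 125 with a median of 74.1 and overlapped widely with the controls. The low dose rats had 96.5, 86.5 and 103 normalized RPM at 3-d and 77.0, 108 and 125 at 14-d, against 19.7, 44.6 and 54.2 and against 72.5, 48.8 and 56.1 in the controls of these time points. In both groups each treated rat was above its controls. Of the 301 tested miRNAs, 28.6% showed this for the low dose at 3-d and 32.9% at 14-d. Over all conditions, miR-190a-5p showed it in 4 of 12, where 21.2% of all tests did so.

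The log2 fold changes of miR-190a-5p against the controls were between 0.12 and 1.21 with a median of 0.35, and it passed the DEM thresholds in 2 of 12 conditions (12.1% of all tests), low dose 3-d and low dose 14-d. The largest value, 1.21 ± 0.38 for the low dose at 3-d, was 0.95 ± 0.15 without control 3-d replicate 1. Outside the low dose the values ranged from 0.12 for the high dose at 14-d to 0.74 for the high dose at 3-d. Without control 3-d replicate 1 the high dose value at 3-d was 0.47 and that of the middle dose 0.30 in place of 0.56. At the low dose at 28-d the value was 0.25, and -0.02 without replicate 29.

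Of the 3p strands, miR-7a-1-3p stayed nearest to its control level. The level of miR-7a-1-3p was between 14.1 and 24.9 normalized RPM in the controls and between 14 and 31.4 in the treated livers. Its log2 fold changes were between -0.22 and 0.49, and it was a DEM in 0 of 12 conditions by edgeR and by DESeq2. Over all miRNAs 18.1% of the edgeR tests gave a DEM in either direction. miR-190a-3p was listed at 0 in control 3-d replicate 1 and lay between 1.64 and 4.80 normalized RPM in the other controls and between 0.95 and 9.70 in the treated livers. Its log2 fold changes were between -0.38 and 0.97, with 2 higher DEMs in 12 conditions (12.1% of all tests).

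**Figure D2:**
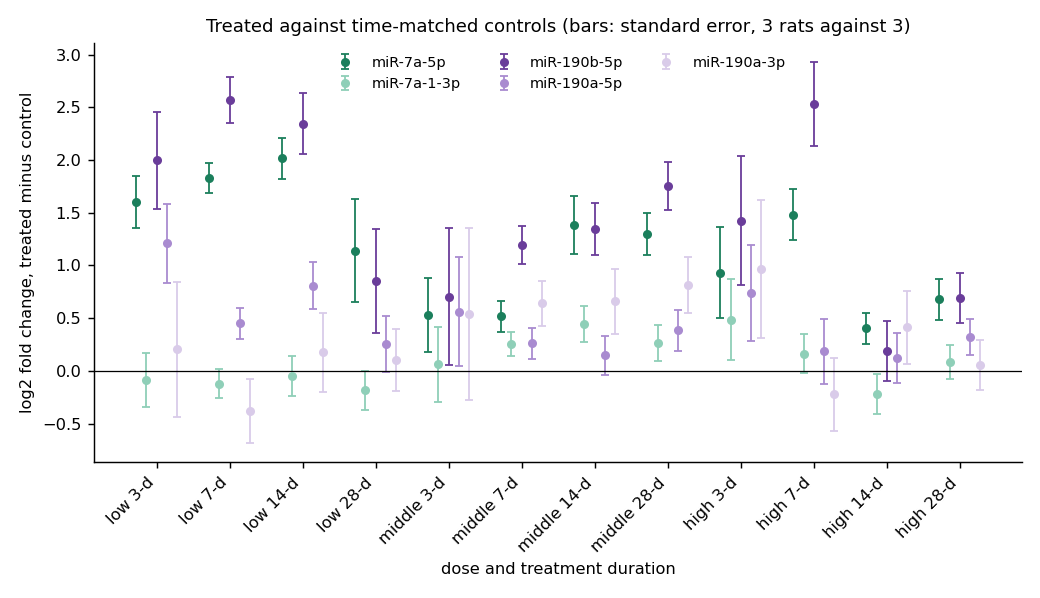
Log2 fold change of treated against time-matched control livers (vertical axis) for the 5 tested members in the 12 dose and duration conditions, with bars for the standard error (3 rats against 3). miR-7a-5p and miR-190b-5p reach 2.02 and 2.57 at the low dose, while miR-7a-1-3p stays between -0.22 and 0.49. These contrasts were known when the members were chosen.

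The 5p and 3p strands of the Hnrnpk hairpin can be set against each other within a library, which makes the comparison free of normalization. In the 12 controls there were between 0.96 and 2.0 reads of miR-7a-5p for each read of miR-7a-1-3p, with a median of 1.46, and the highest of these was control 3-d replicate 1 (up to 1.87 without it). In the treated livers the ratio was between 1.44 and 7.54. It averaged 5.91 ± 1.41 (SD, n = 3) in the low dose group after 3 days, 6.46 ± 1.15 after 7 days and 5.66 ± 1.11 after 14 days. At 14-d the low dose ratios (4.99 to 6.94) did not overlap with those of the high dose (1.75 to 2.41). In the low dose group at 28-d the ratio was 5.81 in replicate 29 and 1.44 and 1.51 in the other rats. Part of the miR-7a-5p reads can come from the hairpin on chromosome 1, whose 3p strand was hardly detected.

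A second ratio within libraries compared the members that share the miR-190 seed. Reads of miR-190b-5p per read of miR-190a-5p were between 0.14 and 0.36 in the controls (from 0.18 without control 3-d replicate 1) and between 0.19 and 1.23 in the treated livers. The ratio averaged 0.55 ± 0.04 at the low dose after 3 days, 0.83 ± 0.17 after 7 days and 0.70 ± 0.02 after 14 days. At the high dose it was 0.97 ± 0.27 at 7-d and 0.27 ± 0.08 at 14-d, the latter at the level of the 14-d controls (0.24 ± 0.06). The reads of the 2 members were thus nearest to parity at 7-d in the low and high dose groups.

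**Figure D3:**
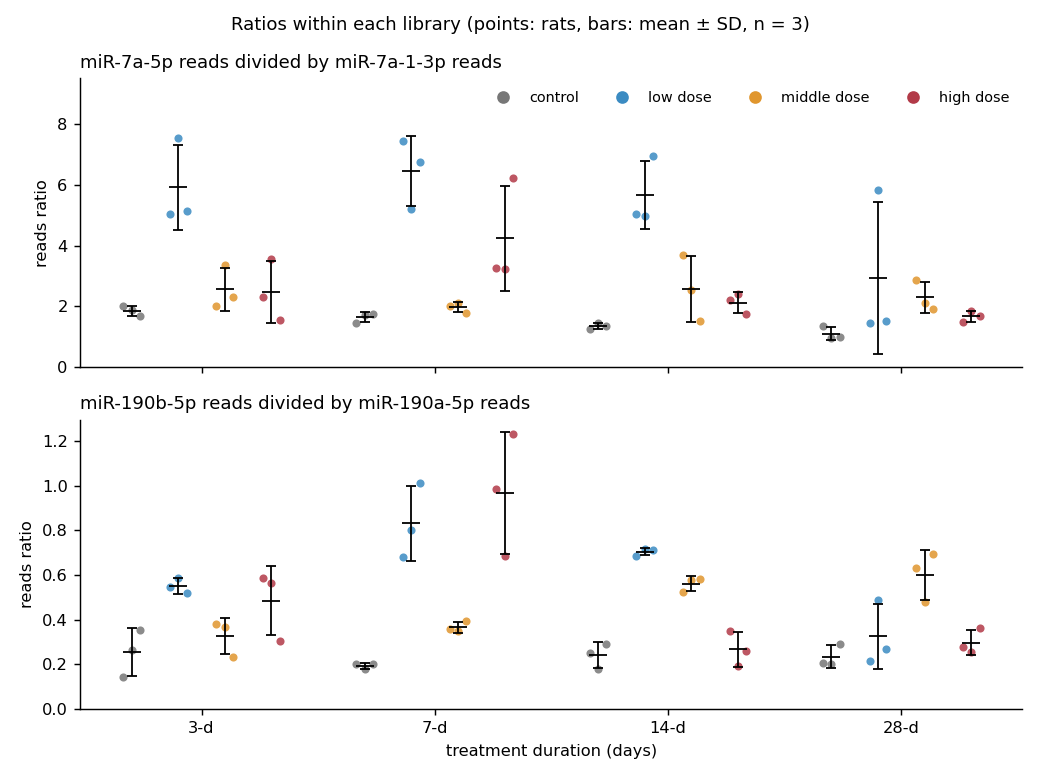
Reads of miR-7a-5p divided by reads of miR-7a-1-3p (upper panel) and reads of miR-190b-5p divided by reads of miR-190a-5p (lower panel) in each library by treatment duration, with 1 point per rat and bars for the mean ± SD of 3 rats. In the upper panel the controls lie between 0.96 and 2.0 and the low dose means up to 14-d between 5.66 and 6.46.

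Differences between doses at the same time point involve treated livers alone. They were tested in a single edgeR fit of all 48 libraries with 12 dose contrasts. Benjamini-Hochberg adjustment ran over the 301 miRNAs of each contrast. The treated livers also entered the treated against control values that were known when the members were chosen. The calls and adjusted p-values of the members are therefore not independent of that choice and are a description. Over all miRNAs, 10.9% of the dose tests were called. miR-7a-5p and miR-190b-5p were each called in 3 of 12, and in the same ones: middle against low dose at 3-d and at 7-d, and high against low dose at 14-d. In each of them the low dose was the higher. High against low dose at 3-d was not called (log2 difference -0.67 for miR-7a-5p and -0.60 for miR-190b-5p). Nor was high against low dose at 7-d (-0.35 and -0.04) or middle against low dose at 14-d (-0.63 and -1.0).

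The largest of these differences was at 14-d. miR-7a-5p averaged 112 ± 22.7 normalized RPM (SD, n = 3) at the low dose and 36.5 ± 1.06 at the high dose, a log2 difference of -1.61 ± 0.32 (SE) with an adjusted p of 0.000823 by edgeR. miR-190b-5p averaged 73.2 ± 18.6 at the low and 16.3 ± 2.61 at the high dose, a log2 difference of -2.16 ± 0.45 (adjusted p = 0.00111, edgeR). All 3 low dose rats were above all 3 high dose rats for both. The share of all miRNAs that separated in this way was not computed, so nothing is read from it. In this contrast 16.3% of the 301 miRNAs were lower at the high dose, and the median of all miRNAs was -0.14. These 2 calls were made in each of the other settings and with each library left out. With library size alone, which moved the median of all miRNAs to 0.22, the differences were -1.25 for miR-7a-5p and -1.80 for miR-190b-5p. Relative to the median they were -1.47 and -2.02 in the main setting and -1.47 and -2.03 with library size alone.

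At 7-d the middle dose was lower than the low dose. miR-7a-5p differed by -1.32 ± 0.32 on the log2 scale (46.8 against 117 normalized RPM, adjusted p = 0.00273, edgeR), and this call was made in each alternative and with each library left out. miR-190b-5p differed by -1.37 ± 0.44 (24.9 against 64.5 normalized RPM, adjusted p = 0.0157, edgeR). Its call was lost without middle dose 7-d replicate 34 or 35 or without low dose 7-d replicate 48, with an adjusted p of up to 0.0722. Of all tested miRNAs, 15.3% were lower at the middle dose in this contrast.

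At 3-d the middle dose was again the lower, by -1.07 ± 0.32 for miR-7a-5p (45.8 against 96.6 normalized RPM, adjusted p = 0.025, edgeR) and by -1.31 ± 0.44 for miR-190b-5p (21 against 52.4 normalized RPM, adjusted p = 0.0461, edgeR), where 4.98% of all miRNAs were lower. These calls were less stable. For miR-7a-5p the call was lost in 3 of 9 alternatives and in 5 of 48 fits with a library left out (adjusted p up to 0.0992). For miR-190b-5p it was lost in 3 of 8 alternatives and in 23 of 48 such fits (adjusted p up to 0.242). Middle dose 3-d replicates 10, 11 and 12 had 34.4, 20.8 and 7.96 normalized RPM of miR-190b-5p, all below the low dose rats. How many of all miRNAs separated in this way was not computed here either, so nothing is read from it.

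Between the low and the high dose at 7-d, where both members were high, the log2 difference was -0.35 for miR-7a-5p with a 95% interval from -0.99 to 0.29, and -0.04 for miR-190b-5p with an interval from -0.91 to 0.83. These intervals include differences of nearly 2-fold. At 7-d the high dose was above the middle dose by 0.96 for miR-7a-5p and 1.34 for miR-190b-5p, but neither passed the adjustment (adjusted p = 0.117 for each, edgeR). Without low dose 28-d replicate 29, which enters the shared estimate of spread, these gave adjusted p-values of 0.0225 and 0.047. Without it the middle dose at 28-d was also above the low dose, by 1.0 ± 0.28 for miR-7a-5p (adjusted p = 0.0348) and 1.72 ± 0.46 for miR-190b-5p (adjusted p = 0.0224), where with all libraries the differences were 0.16 and 0.90 and were not called (adjusted p = 0.854 and 0.202).

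For miR-190a-5p 0 of the 12 dose contrasts were called by edgeR, 3 had an unadjusted p-value below 0.05, and 0 were called by DESeq2. The lowest log2 difference was -0.69 (high against low dose at 14-d, 95% interval -1.29 to -0.09) and the highest 0.18. The difference between miR-190a-5p and miR-190b-5p in their response to dose was not itself tested.

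miR-7a-1-3p was called in 3 dose contrasts, of which none was among the contrasts called for miR-7a-5p. At 14-d it was higher at the middle dose than at the low dose by 0.50 ± 0.16 (27.9 against 19.8 normalized RPM, adjusted p = 0.0225, edgeR), a direction seen for 7.97% of all miRNAs and opposite to the -0.63 of miR-7a-5p, which was not called. It was lower at the high than at the middle dose at 14-d by -0.66 ± 0.16 (17.5 against 27.9 normalized RPM, adjusted p = 0.00592), where 4.32% of all miRNAs were lower. At 3-d it was higher at the high than at the low dose by 0.56 ± 0.16 (24.6 against 16.7 normalized RPM, adjusted p = 0.0165), where 8.97% were higher. The call at 3-d was lost in 2 of 9 alternatives and without high dose 3-d replicate 22 or low dose 3-d replicate 44. The call between the middle and low dose at 14-d was lost in 4 of 48 fits with a library left out, and that between the high and middle dose in 1 of 9 alternatives and in 1 of 48 such fits, the one without high dose 14-d replicate 8. miR-190a-3p was called in 0 of 12 dose contrasts, with 2 at an unadjusted p-value below 0.05, and DESeq2 called 1, middle against low dose at 7-d.

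**Figure D4:**
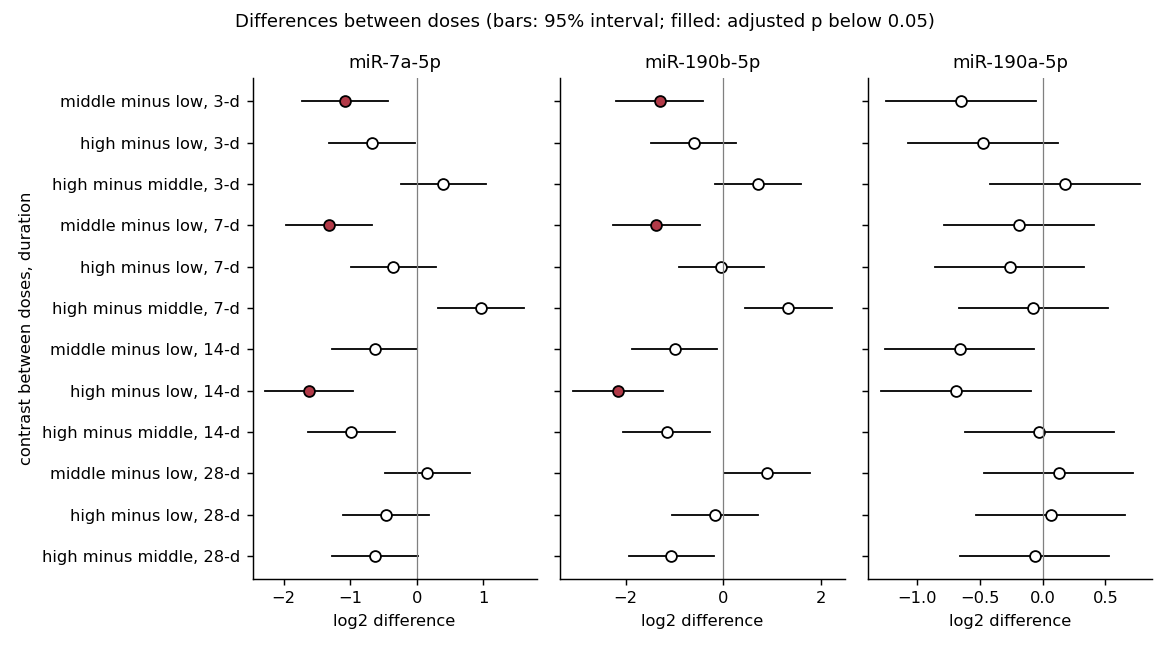
Log2 difference between doses at the same treatment duration (horizontal axes) for miR-7a-5p, miR-190b-5p and miR-190a-5p, with bars for the 95% interval and filled points where edgeR's adjusted p was below 0.05. The same 3 contrasts are filled for miR-7a-5p and miR-190b-5p, with the largest differences (-1.61 and -2.16) between high and low dose at 14-d, and none is filled for miR-190a-5p. The treated livers shown here also entered the values that were known when the members were chosen.

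The effect of treatment was also compared between time points, as the treated against control difference at 28-d minus that at 3-d or 7-d. These differences are built from the treated against control values that were known when the members were chosen, so they are given as a description with no p-value. Of the 6 contrasts 0 were called for each of the 5 tested members by edgeR and by DESeq2, where 3.21% of all tests were called, and nothing is read from this count. For the low dose, the effect on miR-190b-5p at 28-d was below that at 7-d by a log2 difference of -1.72 ± 0.62 (SE) and that on miR-7a-5p by -0.69 ± 0.45. These values rest on low dose 28-d replicate 29. Without it the differences were -2.54 ± 0.61 and -1.53 ± 0.38, and those against 3-d were -1.89 ± 0.61 and -1.28 ± 0.38. For the high dose, the effect on miR-190b-5p at 28-d minus that at 7-d was -1.84 ± 0.62.

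The controls of different time points were compared in the same fit. Of 4 contrasts between control time points none was called for any of the 5 tested members by edgeR, where 19.2% of all tests were called, and 1 of these tests had an unadjusted p-value below 0.05, that of miR-7a-1-3p for 28-d against 3-d. DESeq2 called 0. The log2 difference of miR-7a-5p between 28-d and 3-d controls was -0.32 with a 95% interval from -1.0 to 0.36. For miR-190a-5p it was 0.59 with an interval from -0.03 to 1.21, with control 3-d replicate 1 as the lowest value. Under the filter of at least 5 RPM in every library this contrast was called (0.76, adjusted p = 0.0391, edgeR).

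Over the 48 libraries the levels of miR-7a-5p and miR-190b-5p ran together although their seeds and loci differ. On log2 (normalized RPM + 1), Pearson's r was 0.85 and Spearman's rho 0.87. It was 0.85 over the 36 treated libraries and 0.50 for the deviations from the group means. miR-190b-5p was the member of rank 4 among the 300 other tested miRNAs by likeness to miR-7a-5p. miR-190a-5p and miR-190b-5p had an r of 0.77, and 0.86 for the deviations from the group means, so that rats with more of one member than their group had more of the other. miR-7a-5p and miR-7a-1-3p had an r of -0.03. The libraries share treatment groups, a sequencing pool and the normalization, so these values are a description.

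**Figure D5:**
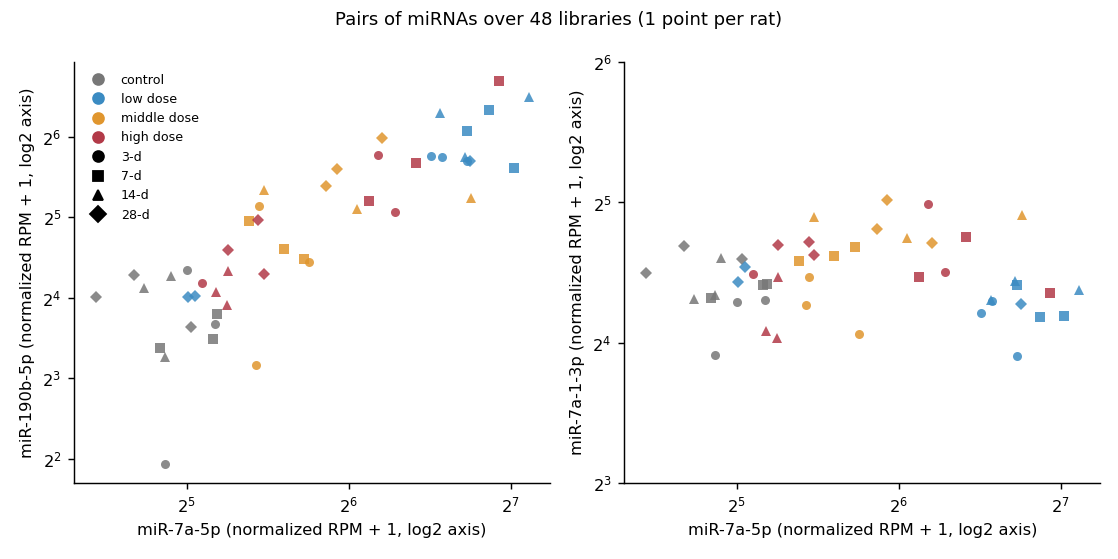
Normalized RPM + 1 on log2 axes for miR-7a-5p against miR-190b-5p (left) and against miR-7a-1-3p (right), with 1 point per rat, coloured by dose and shaped by treatment duration. The points rise together on the left (Pearson's r 0.85, n = 48) and show no such relation on the right (r -0.03).

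The miRNAs whose level was most like that of a member were found by the same measure, Pearson's r over the 48 libraries, with the members themselves left out. Counted among them, miR-190b-5p would rank 4 for miR-7a-5p and 3 for miR-190a-5p, and miR-7a-5p would rank 3 for miR-190b-5p. For miR-7a-5p the most alike were miR-674-5p (0.87), miR-466b-5p (0.86), miR-466c-5p (0.85), miR-34a-5p (0.84), which is induced by p53, and miR-25-3p (0.81). For miR-190b-5p they were miR-3559-5p (0.91), miR-340-5p (0.87), miR-466c-5p (0.83), miR-34a-5p (0.83) and miR-6329 (0.82). For miR-190a-5p they were miR-532-5p (0.81), miR-340-5p (0.79), miR-101b-3p (0.76), miR-101a-3p (0.76) and miR-192-5p (0.76), the last of which is abundant in hepatocytes. However, miR-192-5p was not among the 5 without control 3-d replicate 1 or by Spearman's rho. Without that control miR-466c-5p also left the list of miR-190b-5p. Near-identical miRNAs such as miR-466b-5p and miR-466c-5p may share reads.

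The neighbours of miR-7a-5p and miR-190b-5p differed among themselves in range. They were chosen for their likeness in these libraries, so their values are a description with no p-value. miR-34a-5p lay between 14.1 and 51.7 normalized RPM in the controls and between 33.5 and 1080 in the treated livers, and its log2 difference between high and low dose at 14-d was -3.29 ± 0.52. miR-674-5p stayed between 4.89 and 13.7 in the controls and between 9.35 and 35.7 in the treated livers, with a log2 difference of -1.14 ± 0.31 in the same contrast and of -1.17 ± 0.30 between middle and low dose at 7-d. miR-6329, in contrast, differed by -1.59 ± 0.29 at 14-d and by -0.04 ± 0.28 between middle and low dose at 7-d.

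miR-671 was examined because it directs cleavage of Cdr1as, the circular RNA that binds miR-7. The entry used, miR-671, has no arm in its name, and which strand it holds was not determined. It lay between 65.2 and 733 normalized RPM in the controls, the highest in control 3-d replicate 1, and between 47 and 152 in the treated livers. It was a higher DEM in 1 of 12 conditions (12.1% of all tests) and a lower DEM in 0 (5.98%), and its r with miR-7a-5p was -0.09. Cdr1as itself was not analysed here.

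Lists of marker miRNAs were set beside the members. The 4 hepatocyte miRNAs were the strands of miR-122, miR-192-5p and miR-194-5p. Their summed level was between 290107 and 382506 normalized RPM in the 9 low dose libraries up to 14-d. The sum was between 203869 and 352118 in the other treated libraries. In the controls it was between 103835 and 285397 (from 208790 without control 3-d replicate 1). It was thus high in the low dose libraries in which miR-7a-5p and miR-190b-5p were high, with an r of 0.57 and 0.67 over the 48 libraries. The r with miR-190a-5p was 0.73. Most of the sum was miR-192-5p, with a control median of 196476 normalized RPM against 241199 for the sum. The median log2 fold changes were 0.09 for miR-192-5p, 0.19 for miR-122-5p, -0.10 for miR-194-5p and -0.35 for miR-122-3p. These r values include control 3-d replicate 1. In low dose 28-d replicate 29 the sum was 352118 against 215238 and 229242 in the other rats of the group. The part of this shift in the levels of the members was not tested.

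Of the 48 tests of the hepatocyte miRNAs against controls, 2 gave a higher and 6 a lower DEM. The corresponding counts were 4 and 6 of 60 for leukocyte miRNAs, 6 and 7 of 60 for stellate cell and smooth muscle miRNAs, 5 and 8 of 60 for bile duct epithelium miRNAs and 1 and 20 of 48 for red blood cell miRNAs, where 12.1% of all tests gave a higher and 5.98% a lower DEM. The medians of the log2 fold changes of these lists were -0.06, -0.09, -0.05, -0.09 and -0.59, against 0.06 over all tests. The summed level of the leukocyte miRNAs was between 2435 and 5125 normalized RPM in the controls (from 2699 without control 3-d replicate 1) and between 1867 and 5392 in the treated livers. Most of it was miR-142-5p, with a control median of 2656 against 3549 for the sum. The median log2 fold changes were -0.02 for miR-142-5p, 0.19 for miR-142-3p, -0.19 for miR-223-3p, -0.54 for miR-150-5p and 0.47 for miR-155-5p. The summed level of the bile duct miRNAs was between 428 and 1406 in the controls (from 655 without control 3-d replicate 1). In the treated livers it was between 305 and 1369, with an r of -0.48 with miR-7a-5p. Its largest part was miR-200b-3p, with a control median of 573 against 1010 for the sum. The median log2 fold changes were -0.10 for miR-200a-3p, -0.08 for miR-200b-3p, 0.26 for miR-200c-3p, -0.04 for miR-141-3p and -0.48 for miR-429. The summed level of the stellate cell and smooth muscle miRNAs was between 19385 and 47838 in the controls (from 26572 without control 3-d replicate 1). In the treated livers it was between 29017 and 57576, with an r of 0.37 with miR-7a-5p. Most of it was miR-143-3p, with a control median of 42268 against 43749 for the sum. The median log2 fold changes were 0.14 for miR-143-3p and -0.54 for miR-145-5p. They were between -0.08 and 0.12 for miR-199a-5p, miR-199a-3p and miR-214-3p. In the 9 low dose libraries up to 14-d this last sum was between 44619 and 57576, against 29017 to 50135 in the other treated livers, while that of the leukocyte miRNAs was between 1867 and 3088 against 2279 to 5392. The bile duct sum was between 395 and 1112 in these 9 libraries, against 305 to 1369 in the other treated livers. The part of these shifts in the levels of the members was not tested.

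Since miR-7 is known from brain and endocrine pancreas, markers of these tissues were also examined. Of the 4 pancreas miRNAs, miR-375-3p alone passed the filter, with 263 to 775 normalized RPM in the controls and 270 to 763 in the treated livers. It had 0 DEMs in 12 conditions by edgeR and by DESeq2, where 18.1% of all edgeR tests gave a DEM in either direction. The r of the list with miR-7a-5p was 0.12. miR-216a-5p and miR-217-5p had at most 6 and 4 reads in any library, and miR-216b-5p was at 0 in 46 of 48. Of the 7 brain miRNAs 3 were tested, with 5 higher and 3 lower DEMs in 36 tests (12.1% and 5.98% of all tests) and a median log2 fold change of 0.04. miR-124-3p, the neuronal marker, was at 0 in 40 of 48 libraries, and the r of the list with miR-7a-5p was -0.53. The summed level of the brain list was 80.3 ± 17 normalized RPM (SD, n = 3) at the low dose after 3 days, 77.7 ± 23 after 7 days and 117 ± 17.4 after 14 days. It was lower than in the controls of these time points, which had 163 ± 94.8, 205 ± 9.39 and 191 ± 25.5. Control 3-d replicate 1 had 53.6, and replicates 2 and 3 had 224 and 211. Most of the sum was miR-128-3p, with a control median of 185 against 208 for the sum. The median log2 fold changes were -0.30 for miR-128-3p, 0.43 for miR-9a-5p and 0.03 for miR-138-5p. Of the 36 dose tests of this list, 8 were called, where 10.9% of all dose tests were called. The part of this shift in the levels of the members was not tested.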

How the data were processed

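The authors deposited raw read counts per mature miRNA and precursor, made by trimming adaptors, keeping reads of 18 to 25 bases and counting with miRDeep2 against miRBase release 21. The submitters' processing notes also name build rn5 and FastQC. The deposited counts were neither normalized nor filtered. Groups were taken from the sample titles.

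The quasi-likelihood F-test of edgeR 4.0.16 (R 4.3.3) was run on counts scaled by their upper quartile, for the 301 miRNAs with at least 5 RPM in at least 3 libraries. Each condition was compared with its time-matched controls in a fit of 6 libraries (DEM: unadjusted p below 0.05, fold change above 1.5). Dose contrasts (12), differences of treatment effects (6) and control contrasts (4) came from 1 fit of 48 libraries, with Benjamini-Hochberg adjustment over the 301 miRNAs of a contrast.

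Named miRNAs are the members, the 5 most like each of 3 members by Pearson's r of log2 (normalized RPM + 1), miR-671, miRNAs sharing a member's seed, and the marker lists (hepatocyte, leukocyte, stellate and smooth muscle, bile duct epithelium, pancreas and islet, brain, red blood cell). Members and lists were chosen with earlier results of these data known. Alternatives were TMM, DESeq2 size factors, library size alone, no filter, a stricter filter, DESeq2 1.42.0, summed precursor rows, pooled controls, other libraries in the fit, other adjustments, and each library left out. The code was tested on simulated data. Of the 8 members, 7 had a sequence in the RefSeq table (GRCr8). Limits of detection cover counting error only.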

Additional observations from a re-analysis of the deposited data

How the results depend on the processing

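No paired analysis was possible because the replicate numbers run from 1 to 48 and no number is shared between groups. No called value of miR-7a-5p, miR-190a-5p or miR-190b-5p changed direction under the alternatives run. Of their 102 log2 values, 24 that were not called had the other sign in at least 1 alternative, and 0 of these were called there. miR-190a-5p at the high dose at 7-d went from 0.19 to -0.04 with no filter, and miR-7a-5p between the high and low dose at 28-d from -0.46 to 0.37 without low dose 28-d replicate 29. miR-190b-5p had no value under the filter of at least 5 RPM in every library, which it did not pass.

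With Benjamini-Hochberg adjustment in place of the unadjusted p-value, miR-7a-5p was past the thresholds in 5 of 12 conditions, miR-190b-5p in 6 and miR-190a-5p in 1, and with no filter miR-190a-5p was also past them in 1. Among the 12 dose contrasts, miR-7a-5p differed in 5 with adjustment over the contrasts together. With the 6 libraries compared alone, miR-190a-5p differed in 1 and miR-190b-5p in 5. With the filter in every library, 1 of 4 control contrasts was called for miR-190a-5p (28-d against 3-d).

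With each library left out in turn, miR-7a-5p was past the thresholds in 6 to 9 conditions, miR-190a-5p in 1 to 2 (1 without low dose 3-d replicate 45) and miR-190b-5p in 8 to 10. The median log2 fold changes over the 12 conditions were 1.06 to 1.35, 0.27 to 0.45 and 1.27 to 1.55. Dose contrasts were called in 2 to 6 for miR-7a-5p, 0 to 1 for miR-190a-5p and 1 to 5 for miR-190b-5p, time contrasts in 0 to 2, 0 to 0 and 0 to 2, and control contrasts in 0 for each. The highest dose and time counts of miR-7a-5p and miR-190b-5p came without low dose 28-d replicate 29, the count of 1 for miR-190b-5p without middle dose 7-d replicate 34 or 35, and that of 1 for miR-190a-5p without middle dose 3-d replicate 10. Of the 15 entries in the 3 lists of nearest miRNAs, 13 were found again without control 3-d replicate 1. The causes of these shifts were not tested. With 3 rats per group the spread is known poorly, and in control 3-d replicate 1 the depth does not resolve the members.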
